A study of Drosophila melanogaster with 13 samples.

Results

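Genes for 8 small secreted immune peptides of Drosophila melanogaster were followed through 13 head libraries. They were chosen by their deposited names, IM1, IM2, IM3, IM23, CG18107, CG5791, CG43202 and Drs, and all 8 were found once each among the 18344 genes of the files. The first 7 of these names are bomanins, and Drs encodes drosomycin, an antifungal peptide. The series studied how Rab proteins, which are switches of membrane traffic, relate to microtubules in flies with a degenerating eye. RNA came from heads of adults aged 5 days, raised at 25 °C. The Rab5 RNAi group carried GMR-Gal4 and UAS-Rab5 RNAi (n = 5), the second group is labelled as carrying GMR-Gal4 and UAS-Rab7 RNAi (n = 4), and the controls carried GMR-Gal4 over a wild-type chromosome (n = 4). All 3 groups therefore carry the driver, which per the labels is active in the retina of pupae and in the eye of adults, while the RNA came from the whole head. Because the controls carried no RNAi transgene, RNA interference and genetic background cannot be told apart. No batch is named in the labels, and whether the samples of a group stem from different crosses is not stated. The p-values therefore reflect variation among these samples only, and that variation may be technical.

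Bomanins are short peptides that the Toll pathway switches on. The fat body, the insect's counterpart of liver and adipose tissue, makes them and releases them into the hemolymph, and flies that lack the main bomanin cluster survive poorly after infection with fungi and some bacteria. In that pathway, recognition proteins and a cascade of serine proteases activate the cytokine Spätzle, Spätzle binds the receptor Toll, and the NF-kappaB factors Dif and Dorsal then leave their inhibitor Cactus and enter the nucleus. Drosomycin is the classical readout of the same pathway. Bomanins are sorted into short forms, which are little more than the core motif, tailed forms, which have an extension, and bicipital forms, which carry the motif at both ends.

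On chromosome arm 2R, 6 members lie together within 7.34 kb. CG43202 (FBgn0262838, now BomT1, a tailed form) lies at 2R:18381393-18381844 on the minus strand and IM23 (FBgn0034328, now BomBc1, bicipital) at 2R:18382704-18383235, also on the minus strand. The short forms follow on the plus strand, with IM1 (FBgn0034329, BomS1) at 2R:18383949-18384378, CG18107 (FBgn0034330, BomS4) at 2R:18384567-18384911, IM2 (FBgn0025583, BomS2) at 2R:18386602-18387030 and IM3 (FBgn0040736, BomS3) at 2R:18387895-18388734. The bicipital gene CG5791 (FBgn0040582, BomBc3) lies at 3R:22087075-22088501 and Drs (FBgn0283461) at 3L:3369556-3369942, both on the plus strand. Coordinates are those of the deposited table, whose build is not given in the sources used here, and for all 8 genes they equal those of a BDGP6 annotation. All 8 are annotated as protein coding, and each position given is that of the whole gene. Only CG18107 overlaps another gene, CG15067, with which it shares 88 bases on the opposite strand. Whether the counting used strand is not given, so reads in that stretch cannot be assigned, and the short bomanins resemble each other in sequence, which leaves the split of reads between them uncertain.

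Levels are given in FPKM, fragments per kilobase of gene length scaled to library size, as deposited. Whole reads could be recovered from them, and libraries held 17138630 to 21410768 reads on genes. Rab5 itself stood at 57.7 ± 5.56 FPKM in Rab5 RNAi heads, 127 ± 15.7 FPKM in the heads labelled Rab7 RNAi and 115.5 ± 4.54 FPKM in control heads (SD, n = 5, 4 and 4). Rab7 stood at 113 ± 5.51, 97.7 ± 9.54 and 99.97 ± 3.93 FPKM in the same order of groups, a log2 difference of -0.04 between Rab7-labelled and control heads with a 95% interval of -0.21 to 0.13. The second group is therefore called Rab7-labelled throughout. In muscle genes 5 libraries stood apart: the muscle actin Act57B was above 1000 FPKM in Rab5 RNAi 1 and 5, in Rab7-labelled 1 and 4 and in control 4, and between 653 and 846 FPKM in the other 8 libraries. Results that rest on these 5 libraries are given with and without them.

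In Rab5 RNAi heads the level of 7 of the 8 peptide genes was lower than in control heads, by 4.25-fold to 20.3-fold in mean FPKM, and CG18107 was the exception. In heads as bulk samples, fewer cells of a type and less RNA per cell cannot be told apart. Differences were tested on log2(FPKM + 1), a scale that understates changes of low genes, with limma fitted to all 10038 genes with a mean of at least 1 FPKM, and a gene is said to be called when its Benjamini-Hochberg adjusted p is below 0.05. Of all genes tested, 9.28% were called lower in this comparison, against 7 of 8 members. The 7 called members were lower in every Rab5 RNAi library than in every control library, as were 9.69% of all genes. The same 7 were called without the 5 libraries of high Act57B, where 12.9% of all genes were called lower. They were also called with those 5 alone, where 5.7% of all genes were, but that fit sets 2 Rab5 RNAi libraries against 1 control, which is assumed to vary like the other groups. The median log2 difference was -2.55 over the members and -0.01 over all genes tested.

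**Figure D1:**
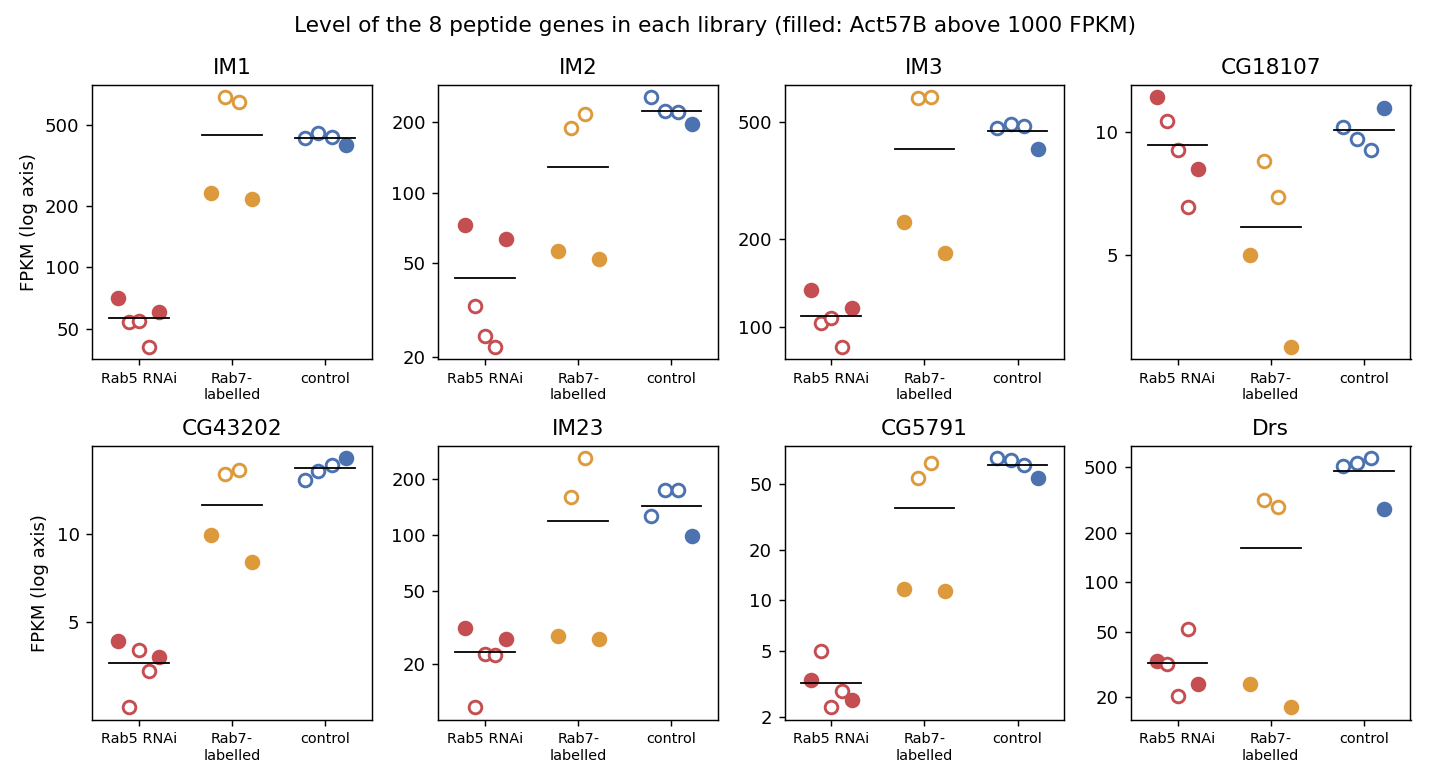
FPKM (log axis) of each peptide gene in every library, with Rab5 RNAi, Rab7-labelled and control libraries from left to right. Each point is a library, horizontal lines are group means and filled points are the 5 libraries with Act57B above 1000 FPKM. In all panels but that of CG18107 the Rab5 RNAi points lie below every control point. In every panel the Rab7-labelled points split into a lower filled pair and a higher open pair.

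Among the short bomanins, IM1 stood at 71.0, 53.8, 54.4, 40.8 and 60.4 FPKM in Rab5 RNAi libraries 1 to 5, against 432.9, 455.7, 436.5 and 397.0 FPKM in control libraries 1 to 4. The highest Rab5 RNAi library was thus far below the lowest control library, and the controls lay close together. The log2 difference was -2.94 (SE 0.32; limma adjusted p = 6.6e-05), 7.68-fold lower in mean FPKM. IM3 stood at 133.9, 103.8, 107.3, 86.0 and 116.0 FPKM in Rab5 RNAi heads against 478.4, 491.8, 485.2 and 405.2 FPKM in control heads. Its groups did not overlap either, and its log2 difference was -2.09 (SE 0.32; limma adjusted p = 0.00073).

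IM2, the third of the strongly expressed short bomanins, spread more within Rab5 RNAi heads. It stood at 72.8, 33.1, 24.5, 22.1 and 63.9 FPKM in Rab5 RNAi libraries and at 254.6, 222.8, 221.0 and 196.8 FPKM in control libraries. Libraries 1 and 5, the pair with high Act57B, held the highest Rab5 RNAi values of IM2, yet they too lay below every control. Its log2 difference was -2.50 (SE 0.46; limma adjusted p = 0.0026), and the coefficient of variation was 54.2% in Rab5 RNAi heads and 10.6% in control heads.

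CG18107, the weakest short bomanin in the control libraries, was not called. It stood at 12.2, 10.7, 9.04, 6.55 and 8.13 FPKM in Rab5 RNAi heads, against 10.3, 9.65, 9.07 and 11.5 FPKM in control heads, and these ranges overlap. The log2 difference was -0.13 with a 95% interval of -0.61 to 0.35 (limma adjusted p = 0.73). These levels rest on 36 to 63 reads in Rab5 RNAi libraries and 46 to 56 reads in control libraries, and the interval does not reach the difference of any other member. IM1 and CG18107 are neighbours on the same strand, with 188 bases between them.

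The tailed bomanin CG43202 had low levels in all groups. It stood at 4.32, 2.56, 4.02, 3.41 and 3.82 FPKM in Rab5 RNAi heads and at 15.3, 16.4, 17.2 and 18.1 FPKM in control heads. The groups did not overlap, although the Rab5 RNAi values rest on only 18 to 31 reads, and the log2 difference was -1.95 (SE 0.18; limma adjusted p = 1.9e-05).

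Both bicipital bomanins among the members were called lower. IM23 stood at 31.4, 11.7, 22.9, 22.5 and 27.5 FPKM in Rab5 RNAi heads against 126.1, 174.7, 173.8 and 98.3 FPKM in control heads. Both groups were wide but did not meet, and the log2 difference of IM23 was -2.60 (SE 0.59; limma adjusted p = 0.0090). CG5791, which lies on another chromosome than the cluster, stood at 3.34, 4.99, 2.29, 2.87 and 2.53 FPKM in Rab5 RNAi heads against 71.3, 69.3, 65.2 and 53.9 FPKM in control heads. Every Rab5 RNAi library was more than 10-fold below every control library. Its log2 difference was -3.996 (SE 0.46; limma adjusted p = 9.8e-05), 20.3-fold in mean FPKM.

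Drs, the antifungal drosomycin, stood at 33.4, 32.1, 20.4, 52.4 and 24.3 FPKM in Rab5 RNAi heads against 511.0, 528.5, 567.5 and 278.6 FPKM in control heads. Control 4 was the lowest control and still more than 5-fold above the highest Rab5 RNAi library. The log2 difference was -3.84, with a wide 95% interval of -5.49 to -2.18 (limma adjusted p = 0.0042), 14.5-fold in mean FPKM.

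The make-up of the 7 bomanins among the members was described as each gene's share of the summed FPKM of these 7. Bomanins outside the members, such as CG15067 with 381 FPKM in control heads, are not in this sum. The 7 bomanins summed to 248 ± 57.2 FPKM in Rab5 RNAi heads, 1150 ± 712 FPKM in Rab7-labelled heads and 1355 ± 118 FPKM in control heads (SD, n = 5, 4 and 4). IM3 made up 44.7% ± 3.46 of the sum in Rab5 RNAi heads, 36.1% ± 2.77 in Rab7-labelled heads and 34.3% ± 0.144 in control heads. The share of IM1 was 22.7% ± 1.45, 39.9% ± 3.27 and 31.9% ± 1.21 in these groups. The share of CG18107 was 3.80% ± 0.712 in Rab5 RNAi heads, 0.588% ± 0.211 in Rab7-labelled heads and 0.757% ± 0.148 in control heads. That of CG5791 was 1.35% ± 0.570 in Rab5 RNAi heads, 2.78% ± 0.757 in Rab7-labelled heads and 4.78% ± 0.254 in control heads. The shares of IM1 and CG5791 were lower, and those of IM3 and CG18107 higher, in every Rab5 RNAi library than in every control library.

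**Figure D2:**
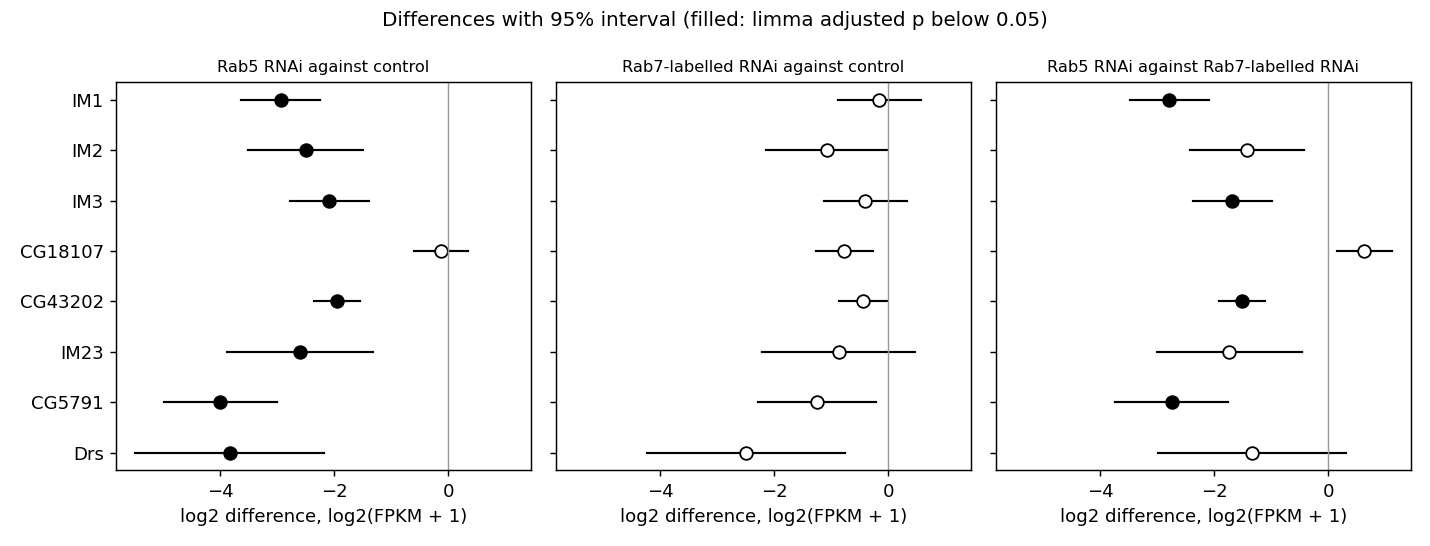
Log2 difference of each peptide gene on the log2(FPKM + 1) scale with its 95% interval, in the 3 comparisons. Filled points have a limma adjusted p below 0.05; 7 are filled on the left, 0 in the middle and 4 on the right.

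In Rab7-labelled heads, set against the same 4 control libraries, limma called no member (0 of 8, where 3.21% of all genes tested were called). All 8 log2 differences were below 0, at a median of -0.82, where the median of all genes tested was -0.01. An unadjusted limma p below 0.05 was reached by 5 members and by 17.3% of all genes tested. With limma-voom on the recovered reads 0 members were called as well. The log2 difference was -2.50 for Drs (95% interval -4.24 to -0.76; limma adjusted p = 0.12), -1.25 for CG5791 (limma adjusted p = 0.20) and -1.08 for IM2 (limma adjusted p = 0.28). For IM1 it was -0.15, with an interval of -0.88 to 0.57 (limma adjusted p = 0.88). In mean FPKM IM1 went the other way, at 445 in Rab7-labelled heads and 431 in control heads. CG18107 was the only member whose groups did not overlap, a property that 6.89% of all genes had in the lower direction. It stood at 5.01, 8.52, 6.93 and 2.98 FPKM in Rab7-labelled heads against 10.3, 9.65, 9.07 and 11.5 FPKM in control heads, a log2 difference of -0.77 (SE 0.23; limma adjusted p = 0.098). Without Rab7-labelled 2, 2 members were called lower by limma, CG18107 (log2 difference -0.95, adjusted p = 0.043) and Drs (-3.16, adjusted p = 0.048). Of all 10038 genes tested, 167 to 297 were called in either direction in the fits with 1 library left out.

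Within the Rab7-labelled group the members did not scatter evenly but split into pairs of libraries. Drs stood at 24.1 and 17.4 FPKM in Rab7-labelled 1 and 4, the libraries with high Act57B, and at 316.7 and 287.5 FPKM in Rab7-labelled 2 and 3. The first pair lay in the range of the Rab5 RNAi libraries or below it. The second pair lay within the range of the controls only because of control 4, a library of high Act57B, at 278.6 FPKM. It lay below control 1, 2 and 3, at 511.0, 528.5 and 567.5 FPKM. IM1 stood at 232.2 and 217.2 FPKM in libraries 1 and 4 and at 682.1 and 648.3 FPKM in libraries 2 and 3. Libraries 2 and 3 were thus above every control library, and libraries 1 and 4 were below every control library.

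The same order held for the other 6 members, so that libraries 1 and 4 were below libraries 2 and 3 for 8 of 8 genes. Over all genes tested, 26.2% were lower in both libraries of that pair. Mean FPKM was higher in libraries 2 and 3 by 14.6-fold for Drs, 7.52-fold for IM23, 5.25-fold for CG5791, 3.71-fold for IM2, and 2.97-fold and 2.96-fold for IM3 and IM1. The pairs differed least for CG18107, at 1.94-fold, and CG43202, at 1.81-fold. IM3 was above every control in libraries 2 and 3, with 604.3 and 605.9 FPKM, and below every control in libraries 1 and 4, with 228.4 and 179.2 FPKM.

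This order was not seen in Rab5 RNAi heads, and it was seen for 6 members in control heads. In Rab5 RNAi heads the high-Act57B libraries 1 and 5 were above the other 3 libraries for IM1, IM2, IM3 and IM23, as they were for 20.8% of all genes tested, and the levels of the 2 kinds of library overlapped for the other 4 members. Control 4 was the lowest control for 6 members and the highest for CG18107 and CG43202. Over all genes tested it was the lowest control for 32.3% and the highest for 32.1%. With only the 8 libraries of low Act57B, IM1 was called higher in Rab7-labelled heads than in control heads (log2 difference 0.59; limma adjusted p = 0.033), as were 2.51% of all genes. IM3 and IM23 had differences of 0.32 and 0.38 that were not called, and the other 5 members had differences between -0.82 for Drs and -0.01 for CG43202, none of them called. With only the 5 libraries of high Act57B, 7 members were called lower in Rab7-labelled heads, CG18107 being the exception, where 1.69% of all genes were called lower, but that fit sets 2 libraries against 1 control, which is assumed to vary like the other groups.

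**Figure D3:**
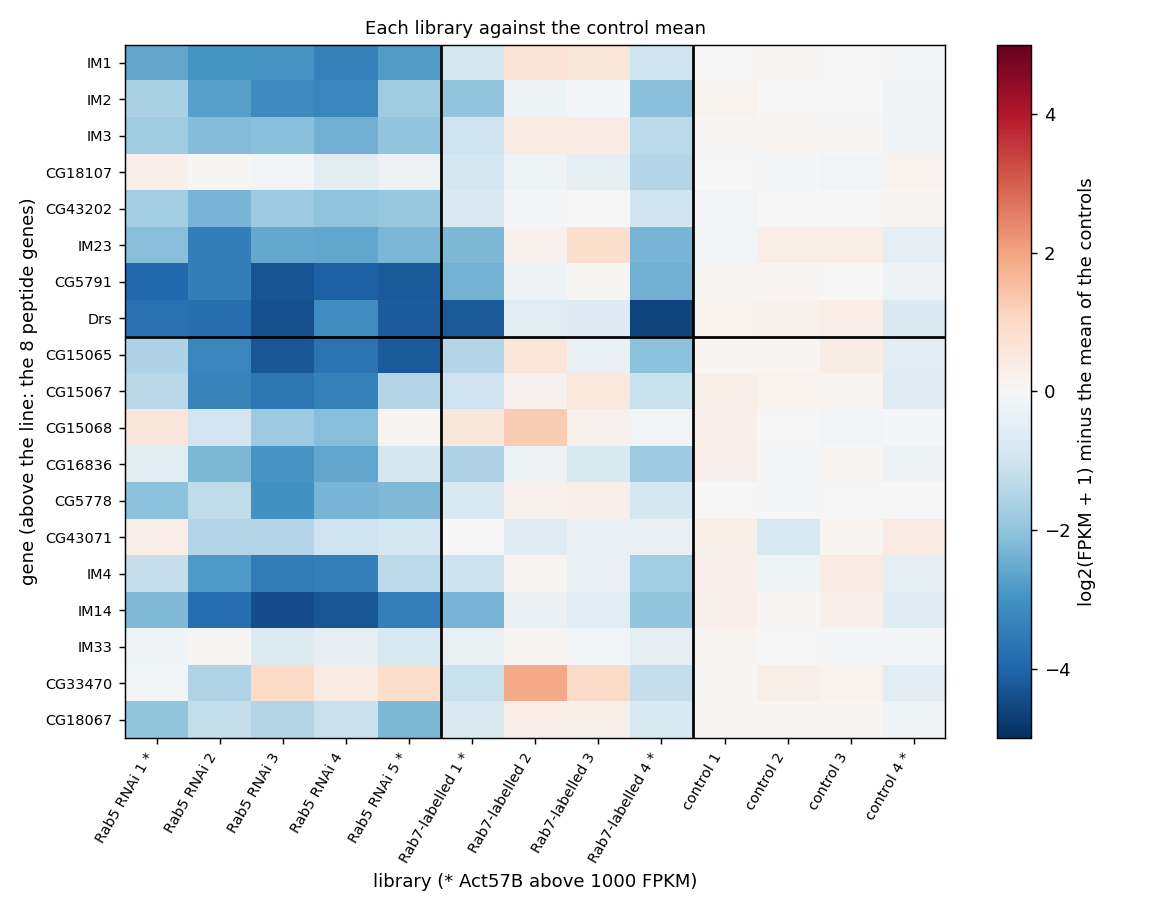
Log2(FPKM + 1) of each gene in each library minus the mean of the control libraries, for the 8 peptide genes (above the line) and 11 other bomanins and immune-induced peptides. Blue is lower and red is higher than the control mean, and asterisks mark the 5 libraries with Act57B above 1000 FPKM. Rab7-labelled 1 and 4 are blue and 2 and 3 near white for most genes, and the row of CG18107 stays pale in the Rab5 RNAi columns.

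Rab5 RNAi heads were also set against Rab7-labelled heads. Of the 8 members, 4 were called lower in Rab5 RNAi heads, where 6.4% of all genes tested were: IM1 (log2 difference -2.79, SE 0.32; limma adjusted p = 0.00014), IM3 (-1.68, SE 0.32), CG5791 (-2.75, SE 0.46) and CG43202 (-1.51, SE 0.18). For these 4 every Rab5 RNAi library was below every Rab7-labelled library, as for 6.57% of all genes in this direction. IM2 (log2 difference -1.42), IM23 (-1.73) and Drs (-1.34) were not called, and in these 3 genes Rab7-labelled 1 and 4 lay at or below the highest Rab5 RNAi library. Without the libraries of high Act57B, 7 members were called lower in Rab5 RNAi heads, and Drs had a log2 difference of -3.17 (limma adjusted p = 0.00026), where 8.54% of all genes were called lower. With only the libraries of high Act57B, 2 in each group, IM1, IM3, CG5791 and CG43202 were called lower, where 9.15% of all genes were. In that fit the differences of IM2 (0.32; limma adjusted p = 0.09), IM23 (0.0753; limma adjusted p = 0.67) and Drs (0.46; limma adjusted p = 0.21) were above 0 and not called. CG18107 had the opposite sign, a log2 difference of 0.64 (SE 0.22; limma adjusted p = 0.085), and was called higher in Rab5 RNAi heads when the libraries were scaled to plain read totals (0.74) and with only the libraries of high Act57B (1.17; limma adjusted p = 0.037).

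The neighbours of the members within 10 kb show how far the pattern extended along the chromosome. On 2R, 6 of them were tested, and 4 are further bomanins. CG15067 (BomBc2), which overlaps CG18107, averaged 74.5 FPKM in Rab5 RNAi heads and 381 FPKM in control heads (log2 difference -2.65; limma adjusted p = 0.0041). CG16836 (BomT2) and CG15065 (BomS5) were also called lower, at -1.83 and -3.39. CG15068 (BomS6) was not called, with 84.8 ± 64.7 FPKM in Rab5 RNAi heads and 120 ± 16.2 FPKM in control heads (log2 difference -0.85; limma adjusted p = 0.26).

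The other 2 tested neighbours on 2R are not bomanins. Idgf5, which encodes a secreted chitinase-like growth factor, had a log2 difference of -0.98 that was not called (limma adjusted p = 0.14), and the glutathione S-transferase gene GstE10 was called higher, with 3.58 FPKM in Rab5 RNAi heads and 0.507 FPKM in control heads (log2 difference 1.53; limma adjusted p = 0.0013). lncRNA:CR42736, on the other side of the cluster, did not exceed 0.981 FPKM in any library and was not tested. Next to CG5791 on 3R, the bomanin CG5778 (BomT3) was called lower at -2.17 in Rab5 RNAi heads, and CG13408 had a log2 difference of 0.32 (limma adjusted p = 0.062). None of the 4 neighbours of Drs was called lower: Ythdc1, a reader of modified RNA, had a log2 difference of -0.13, CG12010 of -0.02 and the sulfatase gene Ids of 0.35, and CG12012 was called higher at 0.49 in Rab5 RNAi heads and at 0.56 in Rab7-labelled heads.

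**Figure D4:**
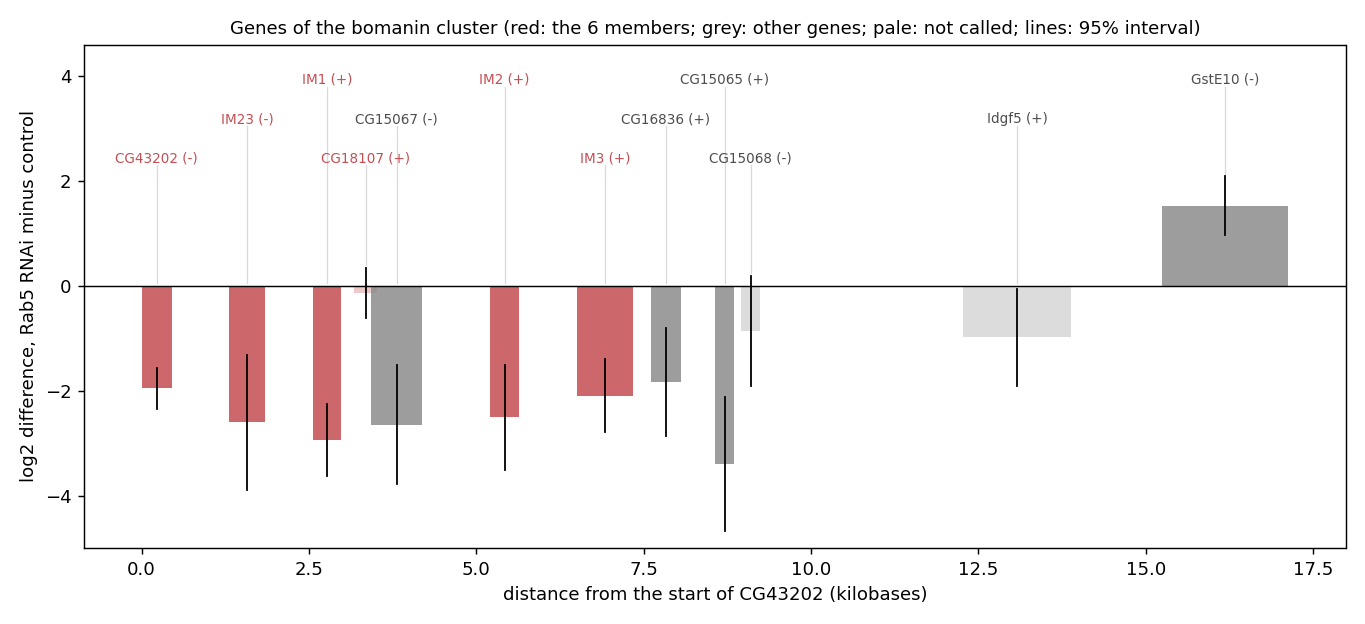
Genes around the 6 members on 2R, placed by distance from the start of CG43202 in kilobases, with strand in brackets. The height of each block is the log2 difference of Rab5 RNAi against control heads and its width the gene's extent, with the 95% interval as a line; red blocks are members, grey blocks other genes and pale blocks genes that were not called. CG18107 lies near 0 between IM1 and CG15067, at -2.94 and -2.65.

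Outside the 8, 5 genes had profiles closest to the members' median over the 13 libraries, by the mean absolute distance of log2(FPKM + 1) less the control mean. They were CG16772 (distance 0.32), CG30002 (0.35), CG15293 (0.35), the serpin gene Spn88Eb (0.36) and CG18563 (0.37), where the median of all genes was 1.28. Members' own distances ran from 0.22 for IM2 to 1.10 for Drs, and CG18107 had 1.08. CG16772 was the most abundant of the 5, with 193 ± 22.1 FPKM in Rab5 RNAi heads, 1096 ± 514 FPKM in Rab7-labelled heads and 1319 ± 161 FPKM in control heads. Since the likeness used these values, they are given as a description.

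Other genes of the 2 immune pathways were described with the same fit. Of 11 tested genes for other bomanins and immune-induced peptides, 7 were called lower and 0 higher in Rab5 RNAi heads, where 9.28% and 8.26% of all genes tested were. The median log2 difference of the 11 genes was -1.83. The 7 called genes were led by IM14 (Dso2, a daisho peptide), with 6.10 FPKM in Rab5 RNAi heads and 74.6 FPKM in control heads (log2 difference -3.62; limma adjusted p = 0.00032), followed by CG15065 and CG15067, described above, and IM4 (Dso1), at -2.44. In Rab7-labelled heads 0 of the 11 were called against control heads (median -0.33), where 3.21% of all genes tested were. Of the 11, 9 were lower in Rab7-labelled 1 and 4 than in 2 and 3, as were 26.2% of all genes tested. Against Rab7-labelled heads, 5 of the 11 were called lower in Rab5 RNAi heads, where 6.4% of all genes tested were. The count was 8 without the libraries of high Act57B or without Rab5 RNAi 1. Among drosomycin's relatives 2 of 6 were tested, and Drsl5 was called lower in Rab5 RNAi heads (log2 difference -1.54; limma adjusted p = 0.0100). Drsl4 had -0.46 there and was called only without control 4 or without the libraries of high Act57B, where 2 of 2 were.

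The classical antimicrobial peptide genes moved in both directions. Of 13 tested, Mtk (metchnikowin, antifungal; log2 difference -3.01), AttC (an attacin; -2.66) and DptB (a diptericin; -2.31) were called lower in Rab5 RNAi heads. Def, which encodes defensin, was called higher, with 85.6 ± 61.4 FPKM in Rab5 RNAi heads and 22.4 ± 9.63 FPKM in control heads (log2 difference 1.68; limma adjusted p = 0.029). Of all genes tested, 9.28% were called lower and 8.26% higher in this comparison. The median of the 13 was 0.01, and without control 1 only 1 gene of the list was called. Against control heads 0 of 13 were called in Rab7-labelled heads (median -0.96), where 3.21% of all genes tested were, and 1 without Rab7-labelled 3 or without control 2. Dro (drosocin), CecA1 and CecB (cecropins) were called higher in Rab5 RNAi heads than in Rab7-labelled heads, as were 4.67% of all genes tested, at 2.72, 2.62 and 2.03, and Dro averaged 101 FPKM in Rab5 RNAi heads and 15.7 FPKM in Rab7-labelled heads. Without Rab7-labelled 3, 6 genes of the list were called there.

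**Figure D5:**
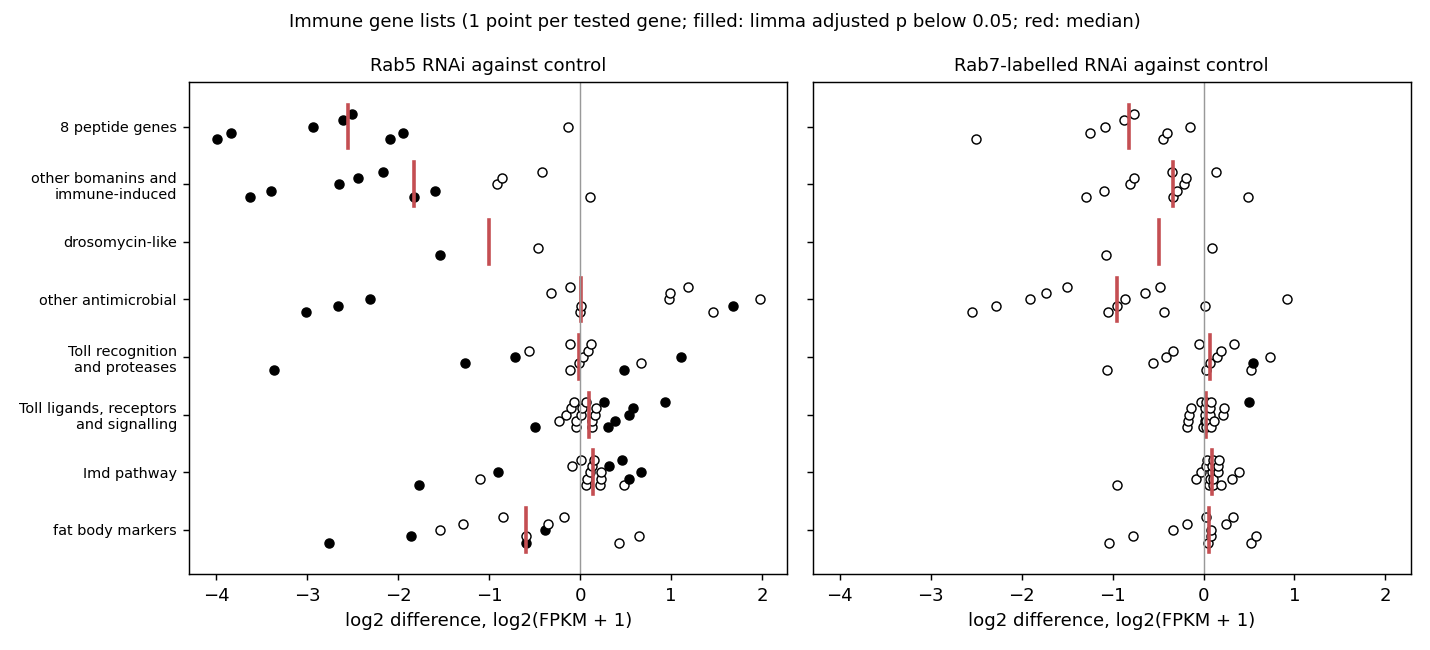
Log2 differences, on the log2(FPKM + 1) scale, of the tested genes of each list in Rab5 RNAi heads (left) and Rab7-labelled heads (right), each against control heads. Each point is a gene, filled where its limma adjusted p is below 0.05, and red lines are list medians. On the left the medians of the 8 peptide genes and the other bomanins lie at -2.55 and -1.83, and those of the Toll and Imd lists near 0.

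Genes of the Toll pathway upstream of the peptides were described next. Of 13 recognition proteins and proteases tested, 3 were called lower in Rab5 RNAi heads, where 9.28% of all genes tested were. GNBP-like3, named for its likeness to Gram-negative binding proteins, averaged 12.97 ± 8.17 FPKM in Rab5 RNAi heads and 127 ± 28.4 FPKM in control heads (log2 difference -3.36; limma adjusted p = 0.00069). SPE, the protease that cleaves Spätzle, averaged 43.4 ± 18.7 FPKM in Rab5 RNAi heads and 98.6 ± 10.8 FPKM in control heads (-1.26; limma adjusted p = 0.0039), and GNBP3, a receptor for fungal glucans, differed by -0.72. Called higher were 2, the protease gene spirit (1.11) and GNBP2 (0.48), as were 8.26% of all genes tested, and the list's median was -0.01. GNBP2 was the only gene of this list called in Rab7-labelled heads against control heads (0.54; limma adjusted p = 0.028), where 1.64% of all genes were called higher. No gene of the list was called there without Rab7-labelled 1 or 4 or without control 1, 2 or 3. GNBP-like3 (-2.31), SPE (-0.93) and GNBP3 (-0.67) were also called lower in Rab5 RNAi heads than in Rab7-labelled heads, as were 6.4% of all genes tested. In that comparison 1 gene of the list was called without Rab5 RNAi 2 or 4 or without Rab7-labelled 2 or 3.

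Of 20 tested ligands, receptors and signalling proteins, 6 were called higher and 1 lower in Rab5 RNAi heads, with a median log2 difference of 0.10. Of all genes tested, 8.26% were called higher and 9.28% lower. The largest were spz3 (0.93), a relative of Spätzle, spz (0.58), which encodes Spätzle itself, and the Toll-family receptor Tollo (0.53), and the Toll-family receptor 18w was lower (-0.50). Leaving out Rab5 RNAi 3 or any 1 of the 4 controls left 3 or 4 called genes in this list. In Rab7-labelled heads spz3 was called higher than in control heads (0.50), as were 1.64% of all genes tested. No gene of the list was called there without Rab7-labelled 2, 3 or 4 or without control 1, 2 or 3. Both spz (0.56) and spz3 (0.43) were called higher in Rab5 RNAi heads than in Rab7-labelled heads, as were 4.67% of all genes tested. In that comparison 1 gene of the list was called without Rab5 RNAi 3 or Rab7-labelled 2.

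The receptor, inhibitor and NF-kappaB factors of the pathway were not called in Rab5 RNAi heads against control heads. Of the signalling genes called higher there, those not named above were Myd88 (log2 difference 0.38), wek (0.31) and pll (0.26). The receptor Toll (Tl) had a log2 difference of 0.13 (95% interval -0.07 to 0.33), the inhibitor Cactus (cact) of -0.05 (-0.21 to 0.11), Dif of 0.02 (-0.15 to 0.19) and Dorsal (dl) of 0.18 (-0.03 to 0.39), each a level of transcript and not of active protein. Of 18 tested genes of the Imd pathway, the other NF-kappaB pathway of fly immunity, 4 were called higher and 2 lower (median 0.14). Of all genes tested, 8.26% were called higher and 9.28% lower. PGRP-SB1, a peptidoglycan recognition protein, was lower (-1.77; limma adjusted p = 0.0036), as was Tab2, an adaptor of the pathway's kinase (-0.90), while pirk, an inhibitor of the pathway, and the kinase gene IKKbeta were higher (0.67 and 0.53). The pathway's factor Relish (Rel) had 0.23 (-0.05 to 0.50). Against Rab7-labelled heads, Tab2 (-0.82), pirk (0.63) and IKKbeta (0.51) were called in the same directions in Rab5 RNAi heads. Of all genes tested, 6.4% were called lower and 4.67% higher in that comparison. From the Imd list 1 gene was called there without Rab7-labelled 3 and 5 without the libraries of high Act57B. In Rab7-labelled heads 0 of 18 were called against control heads, where 3.21% of all genes tested were, and 2 without the libraries of high Act57B.

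Markers of the tissues that could hold these transcripts moved with some of the groups. The 20 fat body markers, of which 14 were detected in every library and Npc2e and CG9914 were at 0 throughout, summed to 306 to 585 FPKM in Rab5 RNAi heads, 528 to 643 FPKM in Rab7-labelled heads and 487 to 719 FPKM in control heads. Of the 12 tested, Lsp1beta (-2.76), Yp3 (-1.86), FASN1 (-0.59) and Lpin (-0.39) were called lower and 0 higher in Rab5 RNAi heads, at a median of -0.59. Of all genes tested, 9.28% were called lower and 8.26% higher there. Within Rab5 RNAi heads the sum was 511 and 585 FPKM in libraries 1 and 5, which had the higher levels of IM1, IM2, IM3 and IM23, and 306 to 317 FPKM in the other 3. Within Rab7-labelled heads it was 643 and 605 FPKM in libraries 1 and 4, where all members were lower, and 561 and 528 FPKM in libraries 2 and 3. The single markers were divided. Of the 12 tested, 3 were lower and 5 higher in both of libraries 1 and 4 than in libraries 2 and 3. Over all genes tested these shares were 26.2% and 25.7%.

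The 15 photoreceptor markers summed to 1897 to 9104 FPKM in Rab5 RNAi heads, 18527 to 41347 FPKM in Rab7-labelled heads and 35194 to 46408 FPKM in control heads. Of the 15, 14 were called lower in Rab5 RNAi heads, where 9.28% of all genes tested were. The 15 markers summed to 18527 and 19346 FPKM in Rab7-labelled 1 and 4 and to 37525 and 41347 FPKM in Rab7-labelled 2 and 3, the same order as the peptide genes. The sum is dominated by ninaE and Arr2, at 26557 and 8220 FPKM in control heads. Of the 15 single markers, 12 were lower and 1 higher in both of libraries 1 and 4 than in libraries 2 and 3. Over all genes tested these shares were 26.2% and 25.7%. In Rab5 RNAi 1 and 5 the sum was 2300 and 1897 FPKM, lower than in the other 3 libraries, the opposite order to IM1, IM2, IM3 and IM23. The 13 hemocyte markers summed to 128 to 224 FPKM in Rab5 RNAi heads, 116 to 142 FPKM in Rab7-labelled heads and 161 to 221 FPKM in control heads. Of their 12 tested genes 0 were called in Rab5 RNAi heads. In Rab7-labelled heads 4 were called lower, Hml, NimC1, PPO1 and Sr-CI, where 1.56% of all genes tested were. The 16 muscle markers summed to 2294 to 4377, 2256 to 4395 and 2699 to 4216 FPKM in Rab5 RNAi, Rab7-labelled and control heads. Of these 16, only TpnC4 was called in Rab5 RNAi heads against control heads, and it was higher, as were 8.26% of all genes tested. The 9 neuron and glia markers summed to 846 to 960, 924 to 1057 and 1116 to 1211 FPKM in the same order of groups. Of these 9, nSyb and alrm were called lower in Rab5 RNAi heads, as were 9.28% of all genes tested. The 12 gut and Malpighian tubule markers, of which 3 were detected in every library, summed to 7.29 to 75.9 FPKM in Rab5 RNAi heads, 34.0 to 135 FPKM in Rab7-labelled heads and 69.6 to 173 FPKM in control heads. This sum is in effect that of Amy-p and Amy-d, at 79.0 and 60.2 FPKM in control heads. No other gene of the list averaged above 0.762 FPKM in any group. Amy-p and Amy-d were the 2 tested genes, and both were called lower in Rab5 RNAi heads. Within Rab5 RNAi heads the sum was 75.9 and 70.5 FPKM in libraries 1 and 5 and 7.29 to 14.6 FPKM in the other 3, the same order as IM1, IM2, IM3 and IM23. It was 34.0 and 49.4 FPKM in Rab7-labelled 1 and 4 and 106 and 135 FPKM in Rab7-labelled 2 and 3, the same order as all 8 members, and 69.6 FPKM in control 4 and 150 to 173 FPKM in the other 3 controls, the same order as 6 members. The part of these tissues in the peptide results was not tested.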

How the data were processed

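Head RNA of 13 samples was sequenced from libraries made from 1.3 ug of total RNA, per the labels' protocols. The authors deposited FPKM per gene and sample, and a table of the whole series with gene names, identifiers, positions and lengths; these other columns were used as deposited. The 13 columns of per-sample values in that table were not used. The submitters' processing notes name CASAVA, without a version; no source used here gives the aligner, counter, strand setting, build or annotation. Every deposited FPKM above 0 (182918 values) times gene length came out as a multiple of a library's value for 1 read, within 0.05 of a whole number (largest deviation 0.00015), so reads were recovered, and that value equalled the one from median-of-ratios size factors over 11577 genes. The deposited FPKM were therefore already scaled across libraries.

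Values were analysed as log2(FPKM + 1) for genes with a mean of at least 1 FPKM, in limma 3.58.1 (R 4.3.3) with its trend and robust options, all 3 groups in 1 fit, two-sided, adjusted over the 10038 genes tested, and checked on simulated data. SE, intervals and adjusted p come from this fit. At this depth 1 read in a gene of 1 kb is near 0.05 FPKM. Other settings were another pseudocount, no filter, plain read totals, limma-voom, 2-group fits, replicate number as a block, libraries left out and, chosen after seeing the data, the Act57B class as a factor or its high libraries alone.

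The members and gene lists were chosen with earlier results of these data known. Named were all 8 members, up to 4 called genes per pathway list and comparison by size of difference, the 5 genes with the most similar profile and the neighbours within 10 kb. Tl, cact, Dif, dl and Rel were named for their role. Drsl4, Myd88, wek, pll and the called marker genes were named after their values were seen. Of 17626 identifiers also in a BDGP6 annotation, 17502 (99.3%) had the same start and end. Rab5 RNAi and Rab7-labelled comparisons share the 4 controls. No sequence is shown.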

Additional observations from a re-analysis of the deposited data

Results flagged for a closer look

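IM3 in control 4 stood at 405 FPKM, apart from the other 3 control libraries, the nearest of which had 478 FPKM. It was singled out because the gap to its neighbour made up 0.844 of the group's range, above Dixon's 95% critical value for 4 samples. It was the 1 such case among 24 groups (8 genes in 3 groups of libraries), and chance gives about 1 in 20. Control 4 also had high Act57B, and its Drs level was 279 FPKM. Without control 4 the same 7 members were called lower in Rab5 RNAi heads.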

How the results depend on the processing

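In Rab5 RNAi heads against control heads 7 members were called under all 18 alternatives. Log2 differences ran from -3.14 to -2.58 for IM1, -3.10 to -1.52 for IM2, -3.03 to -1.71 for IM23 and -4.07 to -3.24 for Drs, and the largest limma adjusted p of a called member was 0.031 (IM23). Of 424 recomputed member differences in 3 comparisons, 395 kept direction and side of the threshold, 21 newly passed it, 8 reversed and 0 fell short.

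In Rab7-labelled against control heads members called ran from 0 to 2 with 1 library left out, were 1 without the libraries of high Act57B and 7 with those alone. IM1 ran from -0.43 to 0.12 with 1 library left out (0.0913 without Rab7-labelled 1, 0.12 without Rab7-labelled 4). Without the libraries of high Act57B it was 0.59, IM3 0.32 and IM23 0.38. In Rab5 RNAi against Rab7-labelled heads members called ran from 4 to 6 with 1 library left out and were 7 without the libraries of high Act57B; with those alone IM2 was 0.32, IM23 0.0753 and Drs 0.46. The cause was not tested.

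With plain read totals the median of all genes moved to 0.07, -0.03 and 0.11 in the 3 comparisons (Rab5 RNAi against control, Rab7-labelled against control, Rab5 RNAi against Rab7-labelled), and the share of calls that were lower was 32.5%, 56.8% and 26.0%, against 52.9%, 48.8% and 57.8% with the deposited scaling. Genes called numbered 1761, 322 and 1111. Against control, Rab5 RNAi heads had 973 with the libraries of high Act57B alone. Rab7-labelled heads had 559 in a fit of the 2 groups, 629 with the Act57B class as a factor and 167 to 297 with 1 library left out. Between the RNAi groups the counts were 682, 1739 and 725 to 1053 under those settings.

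Same-numbered libraries did not pair, with correlations of their deviations from -0.16 to 0.30. With the replicate number as a block, 7, 0 and 4 members and 1946, 422 and 1169 genes were called in the 3 comparisons, and 1 antimicrobial peptide gene in Rab5 RNAi heads against control heads.

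Depth limits CG18107 (15 to 63 reads) and CG43202 in Rab5 RNAi heads (18 to 31 reads).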

Other observations

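The RNA roX1, which coats the X chromosome of males, stood between 203 and 298 FPKM in all 13 libraries. The yolk protein gene Yp1, which females express strongly, did not exceed 0.735 FPKM in any library. Yp3, a fat body marker, stood at 14.98 ± 8.91 FPKM in Rab5 RNAi heads, 25.8 ± 14.4 FPKM in Rab7-labelled heads and 48.0 ± 3.57 FPKM in control heads (SD, n = 5, 4 and 4).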
